A study of Mus musculus with 4 samples.

Results

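The 10 immediate early genes described here were Fos, Fosb, Jun, Junb, Egr1, Egr2, Arc, Npas4, Nr4a1 and Nr4a3, of 20660 genes with a probe on the array. They were chosen by name, and every non-control probe carrying a RefSeq accession of one of them was read on all arrays. Each gene had 1 probe, which gave 10 probes in all. Pooled whole-brain RNA of 1-day-old C57BL/6J mice had been hybridized to 4 one-color arrays, a male and a female pool of the Sham group and of the TiO2-H group on 1 array each. Such an array carries a single labeled RNA sample, so that brighter spots mean more of the mRNA that binds there. The dams had received 25 μL of vehicle (Sham, 5 dams) or 25 μL of a titanium dioxide nanoparticle (TiO2-NP) suspension (TiO2-H, 6 dams, 100 μg per mouse) by intratracheal spray during pregnancy, on gestational day 10.5 by the protocol and day 14 by the sample names. Each pool held RNA of 2 offspring per dam from the same strain in all groups, and there was 1 pool per group, so that no spread between litters could be measured.

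Immediate early genes are transcribed within minutes of a stimulus, without new protein synthesis, by transcription factors that are already in the cell and are switched on by calcium and growth factor signaling. Most of them encode transcription factors that turn on a later wave of genes, and in neurons their mRNAs are widely used as a trace of recent activity. Several of them are also expressed at a basal level in the developing brain, where they take part in the growth and differentiation of neurons.

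The mRNAs of 8 of the 10 genes were well above background on all 4 arrays, and those of Junb and Nr4a3 were not on any array. None of the 8 reached a 1.5-fold or 0.67-fold change in either sex-labelled comparison. Of all accessions, 1.95% to 2.87% were at or above 1.5-fold in these comparisons, and a further 2.25% were at or below 0.67-fold in each. Npas4 had the largest mean difference of the 8, at 1.20-fold for the male-labelled pair of arrays and 1.31-fold for the female-labelled pair. Fos, Jun, Egr1, Arc, Npas4 and Nr4a1 were higher on both TiO2-H arrays than on both Sham arrays, an order that 30.9% of all accessions well above background had. These 6 became 8 without scaling, where 64.9% of all accessions had it, and 4 after normexp background correction, where 29.7% had it. The smallest gap between the exposures was within the error of the ratio for all of the 6 but Npas4, while Fosb and Egr2 overlapped between the exposures. In limma across all accessions no member, and no other accession, had an adjusted p under 0.05.

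Factors such as CREB and SRF that switch these genes on bind in part just before the start of a gene. This sequence is shown for 4 members. They include Fos as the best known, Npas4 as the member with the largest difference, and Nr4a1 for the Nr4a receptors. Egr2 is shown as the 1 member with a serum response element match among the 8 searched. The 250 bases before the RefSeq start (build GRCm38.p6) are given for Fos (chr12:85473640-85473889, plus strand), Egr2 (chr10:67537619-67537868, plus strand), Npas4 (chr19:4989972-4990221, minus strand) and Nr4a1 (chr15:101266596-101266845, plus strand), 5′ to 3′ on the strand of the gene. Capitals mark the half-site of the cAMP response element (CRE, TGACG, on either strand), the CArG box of the serum response element and the TATA box (TATAAA, on the strand of the gene).

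Fos: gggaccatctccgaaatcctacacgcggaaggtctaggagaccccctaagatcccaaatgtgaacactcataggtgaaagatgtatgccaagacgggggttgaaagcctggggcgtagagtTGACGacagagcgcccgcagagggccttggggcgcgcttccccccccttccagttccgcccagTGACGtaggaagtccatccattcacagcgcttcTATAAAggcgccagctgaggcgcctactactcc

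Egr2: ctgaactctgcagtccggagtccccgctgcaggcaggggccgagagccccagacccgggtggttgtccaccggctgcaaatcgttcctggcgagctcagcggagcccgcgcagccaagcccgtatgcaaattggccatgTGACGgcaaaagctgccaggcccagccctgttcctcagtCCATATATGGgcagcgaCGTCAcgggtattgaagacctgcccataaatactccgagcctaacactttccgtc

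Npas4: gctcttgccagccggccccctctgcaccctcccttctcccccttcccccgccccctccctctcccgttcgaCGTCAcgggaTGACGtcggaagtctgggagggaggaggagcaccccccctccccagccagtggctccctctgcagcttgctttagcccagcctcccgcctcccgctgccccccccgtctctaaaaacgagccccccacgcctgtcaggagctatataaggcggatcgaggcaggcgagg

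Nr4a1: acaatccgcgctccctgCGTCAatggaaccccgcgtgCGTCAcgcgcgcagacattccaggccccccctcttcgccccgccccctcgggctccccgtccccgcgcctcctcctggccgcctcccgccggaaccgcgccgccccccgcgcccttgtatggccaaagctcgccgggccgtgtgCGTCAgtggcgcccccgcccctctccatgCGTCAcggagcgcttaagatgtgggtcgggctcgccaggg

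The motif search covered windows of 8 members, all but Egr1 and Arc. It used 7 motifs on both strands, except the TATA box, read on the strand of the gene. The half-site TGACG was found in 7 of these 8 members, all but Jun, against 19.8% of 27025 genes with a window. A gene counted when any of its windows matched. Of the 5 Egr2 windows, numbered by position, windows 1 and 2 held no half-site. Fos carried it at positions -129 to -125 and -66 to -62, counted back from the start, with a TATA box at -33 to -28. Npas4 carried it on opposite strands at -179 to -175 and -169 to -165, and Nr4a1 and Nr4a3 carried 4 each. The full palindromic CRE (TGACGTCA, which contains the half-site) was in no member window and in 1.77% of genes. The CArG box was in Egr2 alone among these members, in 4 of its 5 alternative windows, several of which overlap, against 1.62% of genes. The site bound by Egr factors (GCGNGGGCG) was in Fosb and Nr4a1 (5.33% of genes). The AP-1 site bound by Fos and Jun dimers, searched only as TGANTCA (7.82% of genes), was in none of these windows. The NBRE bound by Nr4a receptors, searched only as AAAGGTCA (1.55%), was in none either. A match describes these letters in this window and was not tested as a binding site.

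Facts of the arrays bear on every value below. Spots well above background made up 56.2% to 61.2% of an array, none was saturated, and the array's 75th percentile of signal was 810 and 795 for Sham (male, female) and 867 and 871 for TiO2-H (male, female). Values are therefore given scaled, as a percentage of that array's 75th percentile, beside the processed signal. The error given with a ratio is the standard error over kept spots for Fos and, for members with a single spot, comes from the error that the scanner software gives each spot. It describes the array and not the animals. The sex-linked mRNAs went against the sex labels of the TiO2-H arrays, since the signal of Ddx3y, a Y-linked gene, was 1418 for Sham male, 142 for Sham female, 7.18 where the label was TiO2-H male and 1783 where it was TiO2-H female. Lists of 4 values below keep this order. Eif2s3y, also Y-linked, gave 3519, 419.5, 6.4 and 4345. Both genes thus passed the background filter in the Sham pool labelled female, at a lower signal than in the Sham pool labelled male. Uty, another Y-linked gene, read 7.5 in that female-labelled pool and did not pass. The source of this signal was not tested, so neither pairing can be taken as matched by sex. Male and female therefore mean labels here, and each ratio was also computed with the arrays paired across the labels. Both Sham arrays lay in one row of the slide and both TiO2-H arrays in the other, so that exposure and row cannot be told apart.

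Fos (NM_010234) encodes the AP-1 subunit most often used as a marker of active neurons, and its probe was spotted 10 times on each array. Its processed signal was 216 and 208 on the male and female Sham arrays and 242 and 238 on the male and female TiO2-H arrays, or 26.6%, 26.1%, 28.0% and 27.3% of the 75th percentile. Both TiO2-H values were above both Sham values, and the Sham male and TiO2-H female arrays were separated by 0.04 on the log2 scale, with an error of 0.05. The mean ± SD over kept spots was 217 ± 23.8 and 208 ± 13.3 for the male and female Sham arrays (10 spots each), 243 ± 10.5 for TiO2-H male (10 spots) and 238 ± 7.87 for TiO2-H female (9 spots, 1 having been marked as an outlier). The kept spots ran from 180 to 260 on the Sham male array, which spans every kept spot of the TiO2-H female array. These spots measure the same RNA pool, so their spread holds no difference between animals.

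The Fos spots of the Sham male array were less even than those of most probes, with an SD of 0.16 on the log2 scale. The median SD of the 299 probes of this kind that were well above background there was 0.07, and 33 of them had a higher SD than Fos. On the other arrays the SD of Fos was 0.09, 0.06 and 0.05. The log2 ratio of TiO2-H over Sham was 0.07 (1.05-fold, error 0.05) for the male-labelled pair and 0.06 (1.04-fold, error 0.03) for the female-labelled pair. With limma the difference of both TiO2-H arrays from both Sham arrays was 0.07 ± 0.04 (SE, adjusted p = 0.439).

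**Figure D1:**
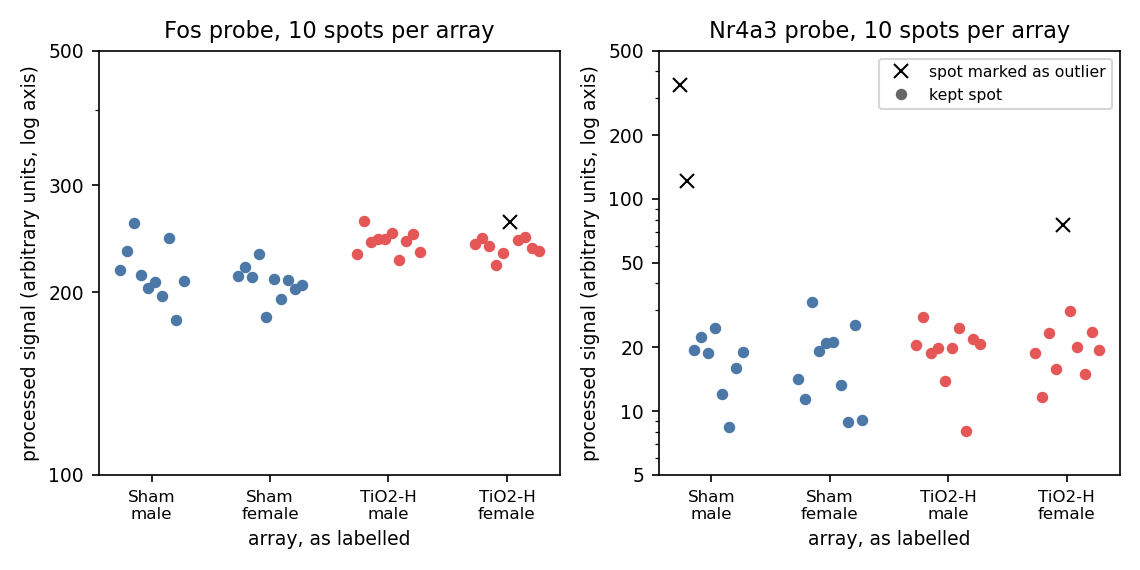
Processed signal before scaling (arbitrary units, log axis) of each of the 10 spots of the Fos probe (left) and the Nr4a3 probe (right) on the 4 arrays, blue for Sham and red for TiO2-H, with crosses for spots marked as outliers and left out. The Fos spots of the Sham male array run from 180 to 260 and overlap those of every other array, and the kept Nr4a3 spots stay at or below 32.5 on every array while the crossed spots reach 346.

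Jun (NM_010591) is the partner with which Fos proteins form the AP-1 dimer. Its processed signal was 3779, 4459, 5120 and 5218, or 466%, 561%, 590% and 599% of the 75th percentile. The Sham male array was the lowest, and the other 3 lay close together. The log2 ratio was 0.34 (1.27-fold, error 0.20) for the male-labelled pair and 0.10 (error 0.20) for the female-labelled pair. The Sham arrays differed between themselves by 0.27, female over male, more than the Sham female array differed from either TiO2-H array. With limma the difference was 0.22 ± 0.11 (SE, adjusted p = 0.39), and it was 0.09 without the Sham male array and 0.35 without the Sham female array.

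Fosb (NM_008036), whose truncated protein form builds up with repeated stimulation, had a processed signal of 182, 176, 207 and 184 in the same order of arrays. Scaled, these were 22.5%, 22.1%, 23.9% and 21.2%, so that the TiO2-H arrays were the highest and the lowest of the 4. The log2 ratio was 0.09 (error 0.22) and -0.07 (error 0.22) for the male-labelled and female-labelled pairs, and with limma the difference was 0.01 ± 0.08 (SE, adjusted p = 0.944). Junb (NM_008416), a weaker AP-1 partner that can restrain Jun, had signals of 15.9, 22.8, 27.0 and 19.2, none of them well above background, where the lowest signal counted as well above background was 23.3 to 31.7 across the arrays. No ratio is given for it.

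Egr1 and Egr2 encode zinc finger factors, Egr1 a standard marker of activity in cortex and hippocampus and Egr2 also the factor that patterns the embryonic hindbrain and drives myelination in Schwann cells. Egr1 (NM_007913) had a processed signal of 1228, 1194, 1406 and 1512, or 152%, 150%, 162% and 174% of the 75th percentile. Its Sham arrays were 0.01 apart on the log2 scale and both TiO2-H arrays lay above them. The log2 ratio was 0.10 (1.07-fold) and 0.21 (1.16-fold) for the 2 pairs, each with an error of 0.20, and with limma the difference was 0.15 ± 0.05 (SE, adjusted p = 0.304).

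Egr2 (NM_010118) had a processed signal of 161, 180, 181 and 215, or 19.8%, 22.7%, 20.9% and 24.7% when scaled. The arrays labelled female were higher than those labelled male within each exposure, by 0.19 in Sham and 0.24 in TiO2-H on the log2 scale, so that the exposures overlapped. Its ratios, 0.07 and 0.12 with the arrays paired as labelled, became 0.32 for TiO2-H female over Sham male and -0.12 for TiO2-H male over Sham female, with errors of 0.22 to 0.23. With limma the difference was 0.10 ± 0.13 (SE, adjusted p = 0.695). Of the 8 measured members, Egr2 and Fosb alone had ratios of opposite sign in the crossed pairs, where Fosb gave -0.09 and 0.11.

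Npas4 (NM_153553) is a neuronal factor induced by calcium entry, with a role in forming inhibitory synapses. The processed signal was 375 and 353 on the male and female Sham arrays and 480 and 506 on the male and female TiO2-H arrays, or 46.2%, 44.4%, 55.4% and 58.1% of the 75th percentile. The Sham arrays were 0.06 apart on the log2 scale, the TiO2-H arrays 0.07 apart, and the smallest gap between the exposures was 0.26. The log2 ratio was 0.26 (1.20-fold, error 0.21) for the male-labelled pair and 0.39 (1.31-fold, error 0.21) for the female-labelled pair, both larger than the error of the single spots. Of 17162 accessions well above background on all arrays, 676 (3.94%) had a difference at or above that of Npas4.

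With limma the difference of Npas4 was 0.32 ± 0.05 (SE, adjusted p = 0.277), and it ranked at 283 by p among 19468 accessions. Its unadjusted p was 0.00503 by limma, and Npas4 was the 1 member of 8 under 0.05 before adjustment. Of all 19468 accessions tested, 16.7% were under 0.05 before adjustment and 0 (0%) after it. A single value cannot reach a two-sided exact permutation p below 0.33 in a comparison of 2 arrays against 2. The difference of Npas4 stayed between 0.24 and 0.44 in the other settings tried, with adjusted p of 0.108 to 0.471. With sex as a term in limma, which compares the arrays within pairs, its unadjusted p was 0.022 with the labels as given (adjusted p = 0.416) and 0.0112 with the labels crossed in TiO2-H (adjusted p = 0.438).

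Arc (NM_018790), whose mRNA travels to active synapses where its protein regulates AMPA receptor removal, had a processed signal of 461, 410, 494 and 505. Scaled, these were 56.8%, 51.6%, 56.9% and 58.0% of the 75th percentile. The Sham female array was the lowest and the other 3 were within 0.03 of each other on the log2 scale, so the count of Arc among the genes without overlap rests on a gap of 0.0016. The log2 ratio was 0.0016 for the male-labelled pair and 0.17 for the female-labelled pair (error 0.21 each), and with limma the difference was 0.09 ± 0.07 (SE, adjusted p = 0.527).

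Nr4a1 and Nr4a3 encode orphan nuclear receptors that act without a known natural ligand. Nr4a1 (NM_010444) had a processed signal of 2743, 2569, 3001 and 2960, or 338%, 323%, 346% and 340% of the 75th percentile. Both TiO2-H arrays were above both Sham arrays, and the gap between the TiO2-H female and Sham male arrays was 0.0062 on the log2 scale. The log2 ratio was 0.03 and 0.07 for the 2 pairs, each with an error of 0.20, and with limma the difference was 0.05 ± 0.05 (SE, adjusted p = 0.567).

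Nr4a3 (NM_015743) was spotted 10 times per array and its kept spots had a mean ± SD of 17.6 ± 5.29 (8 spots), 17.6 ± 7.66 (10 spots), 19.6 ± 5.41 (10 spots) and 19.7 ± 5.38 (9 spots). Of these kept spots 1, on the TiO2-H female array, was well above background. Among the Sham male spots 2 were marked as outliers, with signals of 346 and 122, where the highest kept spot was 24.6, and on the TiO2-H female array 1 such spot had 75.4, where the highest kept spot was 29.7. The same positions read 11.5 to 27.7 on the other arrays. Kept in the average, these spots moved the Nr4a3 signal of the Sham male array from 16.8 to 27.7 and that of the TiO2-H female array from 19.0 to 21.8. Outlier spots were common among probes spotted 10 times, with 100 to 129 of 399 such probes holding at least 1 on an array.

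**Figure D2:**
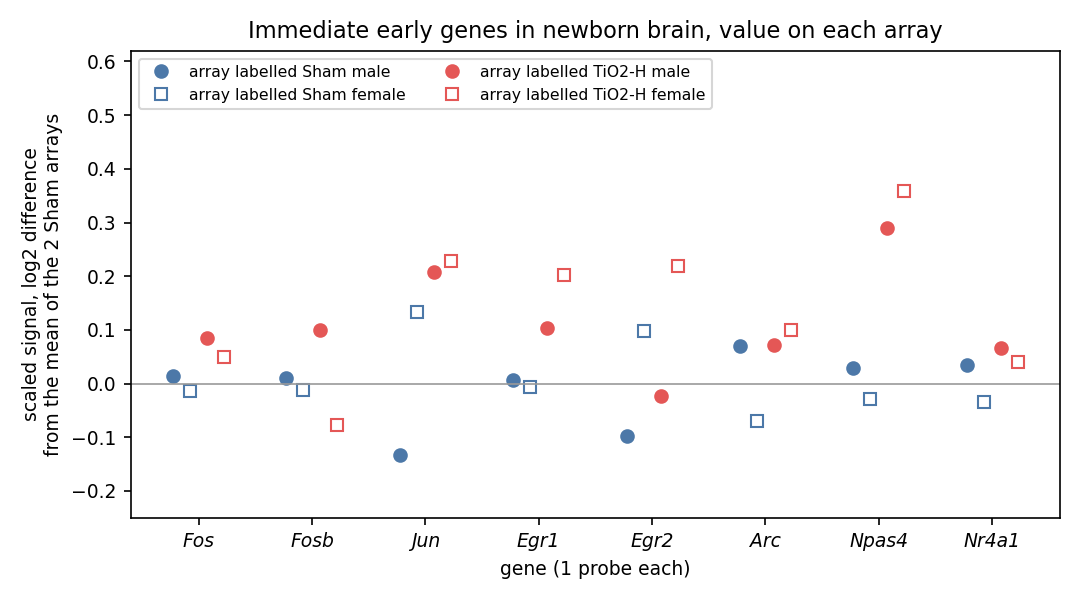
Scaled signal of the 8 measured immediate early genes on each array, as the log2 difference from the mean of the 2 Sham arrays (zero line), with filled circles for arrays labelled male, open squares for arrays labelled female, blue for Sham and red for TiO2-H. Npas4 has both TiO2-H arrays at least 0.26 above both Sham arrays, while the exposures overlap for Fosb and Egr2.

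Of the 8 measured members, 0 were at or above 1.5-fold in the male-labelled pair, where 2.87% of 18616 accessions were, and 0 in the female-labelled pair, where 1.95% of 18902 were. None was at or below 0.67-fold, where 2.25% of all accessions were in either comparison. Between the 2 Sham arrays the count was 0 as well, with 2.14% of accessions above and 2.13% below, and between the TiO2-H arrays, with 1.5% above and 2.76% below. In the pairs across the labels it was 0 too, with 2.3% above and 2.41% below for TiO2-H female over Sham male and 2.46% above and 1.96% below for TiO2-H male over Sham female. In the limma comparison 0 of 8 were called, as for all accessions.

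Higher values on both TiO2-H arrays than on both Sham arrays were found for 6 of the 8 members, where 30.9% of 17162 accessions had this order, and lower values on both for 0, where 25.7% had it. The median log2 ratio of the 8 members was 0.08 and 0.11 for the male-labelled and female-labelled pairs, and over all accessions it was 0.0044 and 0.014. Paired across the labels, the median of the members was 0.12 for TiO2-H female over Sham male and 0.10 for TiO2-H male over Sham female. Between the Sham arrays, female over male, it was -0.03. The 6 genes became 8 without scaling, where 64.9% of all accessions were higher on both TiO2-H arrays, and 4 (Jun, Egr1, Npas4 and Nr4a1) after normexp background correction, where 29.7% were. All 4 arrays enter each of these counts, and the median of all accessions without scaling was 0.10 and 0.14 for the 2 pairs.

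**Figure D3:**
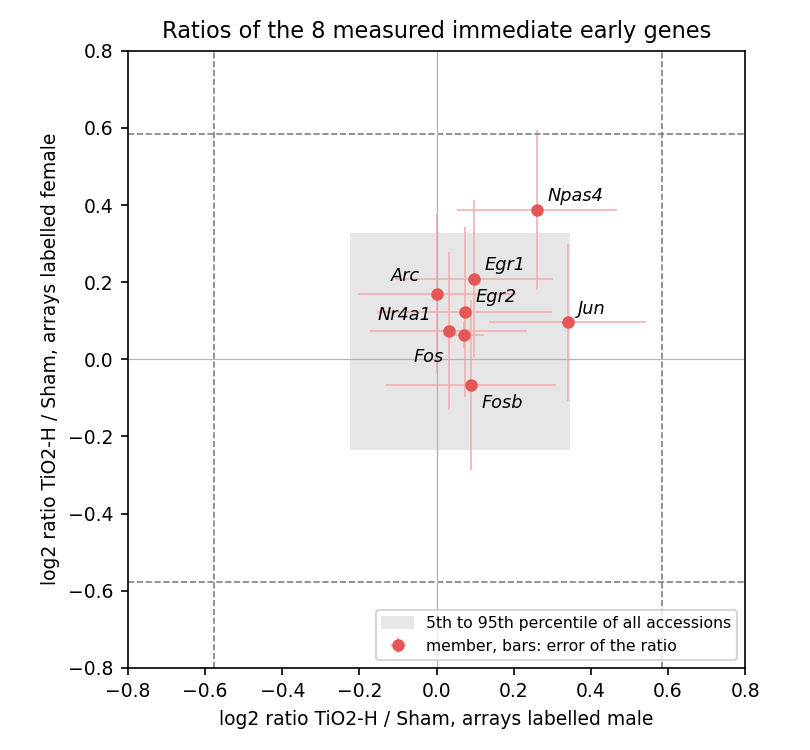
Log2 ratio of TiO2-H over Sham for the male-labelled (horizontal) and female-labelled pair (vertical) for the 8 measured members, with bars for the error of each ratio, dashed lines at 1.5-fold and 0.67-fold, and a gray box from the 5th to the 95th percentile of all accessions well above background. Every member lies inside the dashed lines, and Npas4, at 0.26 and 0.39, is the member outside the box.

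The accessions whose pattern over the 4 arrays was nearest to that of Fos were AK083048, which had no symbol in the RefSeq table, Cdk19 and Rpgr, at Euclidean distances of 0.0041, 0.0059 and 0.0068 on the centred log2 values. Of 17161 accessions compared, 809 lay within 0.05 of Fos, so that nearness over 4 arrays was common.

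The other genes of the same families were Fosl1, Fosl2, Jund, Egr3, Egr4 and Nr4a2. Fosl1 and Egr3 were not well above background on any array, and of the 4 measured 1, Nr4a2, was higher on both TiO2-H arrays (25%) and 0 were lower on both, beside 30.9% and 25.7% of all accessions. Nr4a2, the receptor needed for midbrain dopamine neurons, had log2 ratios of 0.07 and 0.03 for the male-labelled and female-labelled pairs. Jund, which is expressed without stimulation, had -0.13 and 0.08, and Egr4 had -0.23 and 0.05.

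A list of 31 other genes known to be induced rapidly by activity or growth factors held 28 that were well above background on all arrays, and none was called in any comparison of the exposures. Of these, 3 were higher on both TiO2-H arrays (10.7%) and 15 were lower on both (53.6%), beside 30.9% and 25.7% of all accessions. Their median log2 ratio was -0.09 and -0.03 for these pairs, below the median of the members in both. Without scaling the list held 10 higher and 2 lower, beside 64.9% and 4.42% of all accessions. The 3 higher genes were Klf10 (0.18 and 0.23), Homer1 (0.19 and 0.19), a scaffold of the synapse, and Ier5 (0.05 and 0.05). Of the 15 lower genes the 5 with the lowest mean ratio were Per1, a clock gene (-0.09 and -0.40), Ier3, a survival factor (-0.20 and -0.28), Ccn2, a matrix protein also known as Ctgf (-0.15 and -0.23), Nfil3, a transcription factor (-0.20 and -0.15), and the kinase Plk3 (-0.19 and -0.15). These 8 genes were named after their values were seen. By the naming rule, Amigo3 had -0.10 and 0.47, Maff -0.21 and 0.33, and the stress factor Atf3 -0.26 and 0.25, each with opposite signs in the 2 pairs. Between the Sham arrays, female over male, Amigo3 differed by -0.13, Maff by -0.35 and Atf3 by -0.52.

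Of 14 genes that activity induces later in neurons, 13 were measured, 8 of which were higher on both TiO2-H arrays (61.5%) and 2 lower on both (15.4%), beside 30.9% and 25.7% of all accessions. The median log2 ratio was 0.09 and 0.12 for the 2 pairs. Igf1, an insulin-like growth factor, had 0.18 and 0.26, Pcsk1, a protease that matures peptide hormones, 0.20 and 0.21, and Vgf, a precursor of secreted neuropeptides, 0.12 and 0.18. The 2 lower genes, named after their values were seen, were the opioid and tachykinin precursors Penk (-0.06 and -0.05) and Tac1 (-0.13 and -0.02). Without scaling 12 of the 13 were higher on both TiO2-H arrays and 0 lower, beside 64.9% and 4.42% of all accessions.

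All of 24 genes for the kinases, coactivators and transcription factors that act on immediate early promoters were measured. Of these, 7 were higher on both TiO2-H arrays and 6 lower on both, or 29.2% and 25.0% beside 30.9% and 25.7% of all accessions. Without scaling 19 were higher and 2 lower, beside 64.9% and 4.42% of all accessions. Camk4, a calcium-dependent kinase that phosphorylates CREB, had log2 ratios of 0.21 and 0.28. Mef2a, a calcium-responsive transcription factor, had -0.25 and -0.23, and Crem, a relative of CREB, had -0.01 and 0.53. With limma 0 genes of these 4 lists had an adjusted p under 0.05, while 0 genes of the same families, 5 rapidly induced, 5 late and 5 upstream genes were under 0.05 before adjustment, where 16.7% of all accessions were.

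**Figure D4:**
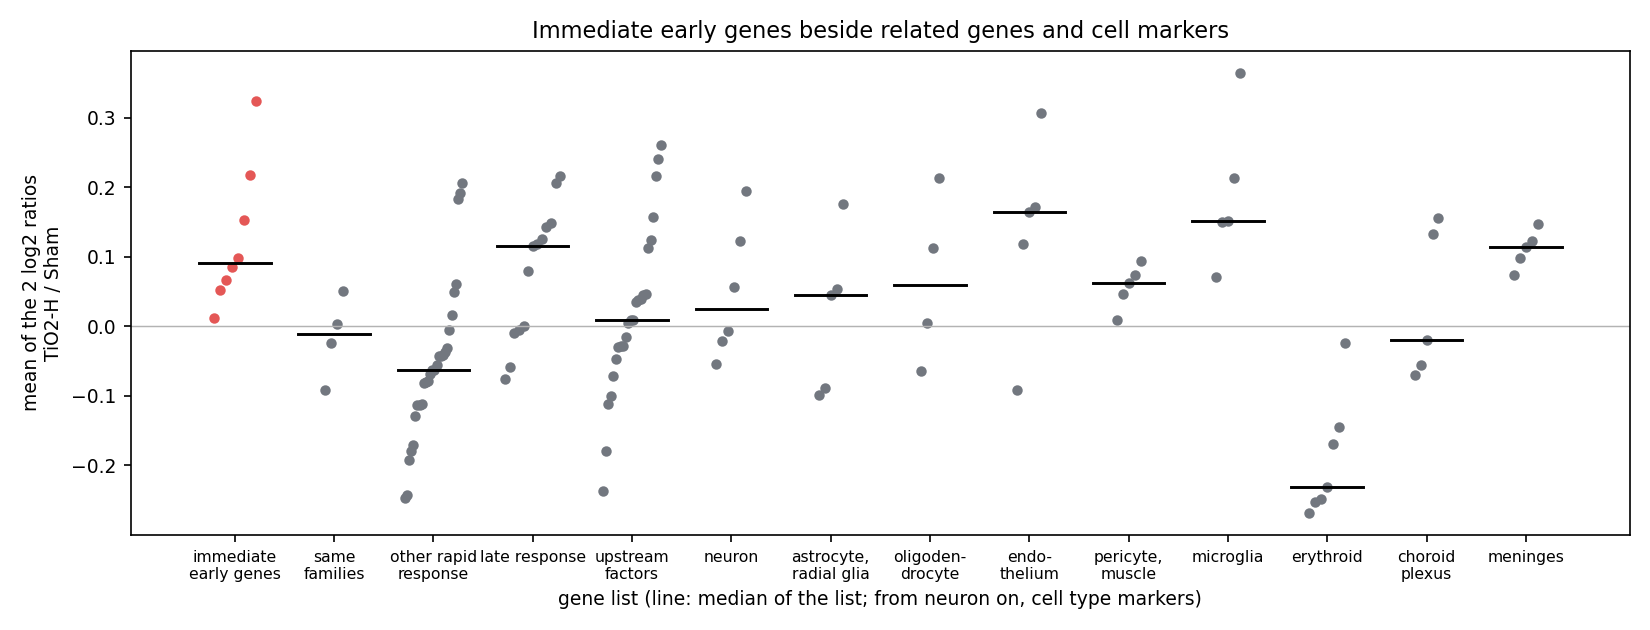
Mean of the 2 log2 ratios of TiO2-H over Sham for each gene well above background on all 4 arrays, by gene list, with a black line at the median of the list and the immediate early genes in red. The medians run from -0.23 for erythroid markers to 0.16 for endothelium, with the immediate early genes at 0.09, below endothelium, microglia (0.15), late response (0.12) and meninges (0.11), and the medians of other rapid response genes (-0.06), choroid plexus (-0.02) and the same families (-0.01) lie below 0.

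Whole brain holds many cell types, and fewer cells of a type and less RNA per cell cannot be told apart in it. Markers of 9 cell types were read beside the members, and each count below stands beside the 30.9% of all accessions that were higher and the 25.7% that were lower on both TiO2-H arrays. The 6 neuron markers were well above background on all arrays, with a summed scaled signal of 48910%, 48280%, 48680% and 50010% of the 75th percentile, and 2 of them were higher and 1 lower on both TiO2-H arrays. Among them Snap25, of the synaptic vesicle fusion machinery, had log2 ratios of 0.21 and 0.18 for the male-labelled and female-labelled pairs, the vesicle protein Syt1 0.08 and 0.16, and the growth cone protein Gap43 0.03 and 0.09.

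The 5 microglia markers were all higher on both TiO2-H arrays, with a sum of 3708%, 3915%, 4204% and 4499%. Most of this sum came from the Itgam probe (2526%, 2763%, 2923% and 3210%). Cx3cr1 counts among the 5 by a gap of 0.0053 on the log2 scale, between the arrays labelled female. Of the 5 markers, the purine receptor P2ry12 had log2 ratios of 0.25 and 0.48, the integrin Itgam 0.21 and 0.22, and Aif1 0.11 and 0.19. The 5 meningeal markers were also all higher, with a sum of 2361%, 2313%, 2483% and 2536%, and among them the matrix genes Dcn (0.10 and 0.19), Col3a1 (0.08 and 0.16) and Col1a1 (0.14 and 0.09). Of the erythroid markers 7 were measured on all arrays and 6 of these were lower on both TiO2-H arrays, with a sum over 8 probes of 31910%, 29810%, 26780% and 27410%. The globins Hbb-bt (-0.26 and -0.28), Hbb-bs (-0.33 and -0.18) and Hba-a1 (-0.28 and -0.22), close copies that can share a probe's signal, were among the lower ones. Without scaling 5 microglia, 5 meningeal and 0 erythroid markers were higher and 4 erythroid markers lower, beside 64.9% and 4.42% of all accessions. The microglia count was 4 after quantile normalization and 3 after normexp, beside 30.4% and 29.7% of all accessions.

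Of the endothelial markers 3 of 5 were higher and 1 lower, with Flt1 at 0.30 and 0.31, Pecam1 at 0.29 and -0.05 and Cldn5 at 0.14 and 0.21. Of the oligodendrocyte lineage 2 of 4 were higher and 0 lower, with Olig1 at 0.19 and 0.23, Pdgfra at 0.11 and 0.12 and Sox10 at -0.15 and 0.03. Of the astrocyte and radial glia markers 2 of 5 were higher and 2 lower, with Fabp7 at 0.09 and 0.27, Gfap at -0.14 and -0.05 and Aldh1l1 at -0.01 and -0.16. Of pericytes and smooth muscle 1 of 5 was higher and 0 lower, with Kcnj8 at -0.19 and 0.34, Pdgfrb at 0.18 and 0.01 and Rgs5 at 0.06 and 0.07. Of the choroid plexus 2 of 5 were higher and 1 lower, with Kl at -0.44 and 0.30, Kcne2 at 0.13 and 0.18 and Otx2 at 0.06 and 0.20. Between the Sham arrays, female over male, Kcnj8 differed by -0.60 and Kl by -0.70. The part of these 9 cell types in the values of the immediate early genes was not tested.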

How the data were processed

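The authors deposited the scanner files of 4 one-color arrays and 1 table of values, both intensity made with Agilent Feature Extraction 10.10.1.1, in which the local background is subtracted. The table equalled the processed signal for all 59305 non-control spots. The values used were log2 processed signals after division by the 75th percentile of the array. Outlier spots, as marked by the software, were dropped, and the remaining spots of a probe were averaged. A probe was well above background where most of its kept spots were. It was compared where this held on at least 1 array of a pair, with the lowest such signal as a floor on the other, and the brightest probe stood for an accession. Genes were named through RefSeq (GRCm38.p6), which held 81.9% of 26206 accessions. The array annotation is of another build, so gene positions are not given.

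Calls were 1.5-fold and 0.67-fold ratios, with no test for 1 array per group, and limma 3.58.1 in R 4.3.3 for both TiO2-H against both Sham arrays without a sex term, with Benjamini-Hochberg adjustment over 19468 accessions at 0.05. The p-values measure the spread between 4 pools. The steps were tested on simulated data. Python 3.11.15, numpy 2.4.6, pandas 2.3.3 and matplotlib 3.10.9 were used. Background correction by normexp (offset 50) used the median signals, since the files hold no mean signals. All members are named, and from each other list genes called in both comparisons or else the 3 with the largest mean absolute ratio. The 3 accessions nearest to Fos in pattern and the sex-linked Ddx3y and Eif2s3y are named besides. Other genes are named with the remark that their values were seen first. The members and lists were chosen with earlier results of these data known. The number of arrays limits the precision. Probe sequences and CpG island arrays were not used here.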

Additional observations from a re-analysis of the deposited data

Results flagged for a closer look

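Fosb moved in opposite directions in the 2 comparisons by sex label, with a log2 ratio of TiO2-H over Sham of 0.09 for the male-labelled pair and -0.07 for the female-labelled pair. These differ by 0.15, each has an error of 0.22, and the difference was not tested, since there was 1 array per group.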

How the results depend on the processing

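The count of members called was 0 in each setting tried (no scaling, quantile normalization, normexp, the deposited table, other filters on background, no floor, outlier spots kept, all probes averaged, pairs across the sex labels, sex as a term in limma, every probe tested and each array left out), and a 2-fold threshold could not have raised it. By limma 0 members were called at an adjusted p of 0.05. Before adjustment 1 was under 0.05, where 16.7% of all accessions were. With all 4 arrays the count was 5 without scaling, 2 with normexp, 2 with the filter on every array, and 1 in the other settings. The share of all accessions under 0.05 was not computed for these settings, so these counts are not a result about the members. Without scaling 64.9% of all accessions were higher on both TiO2-H arrays. Of 312 values of single members under an alternative 9 changed sign, 3 of them limma differences. The other 6 were ratios of a pair: Fosb became -0.0885 and 0.11 and Egr2 -0.12 with pairs crossed, Fosb became 0.07 without scaling, and Arc became -0.0201 and Fos -0.0031 with normexp.

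With 1 array left out, the limma difference of Fosb ran from -0.0771 (without TiO2-H male) to 0.10 (without TiO2-H female), being -2.16e-05 without Sham female, and that of Egr2 from -0.0239 (without TiO2-H female) to 0.22 (without TiO2-H male). The number of members higher on both TiO2-H arrays was 8 without scaling and 4 with normexp. Leaving out 1 array only loosens this order, and gave 6 to 7 members where 41.1% to 43% of all accessions had it. The cause was not tested. Pairing the arrays by sex as a term in limma, as labelled or crossed, gave 0 members called and 1 under 0.05 before adjustment, with a lowest adjusted p of 0.416 and 0.438. Junb and Nr4a3 were too dim for a ratio, and changes under about the error of a single spot, 0.20 on the log2 scale, could not be resolved for the members with 1 spot.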
